A study of Homo sapiens with 4 samples.

Results

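The RUNX family was examined in HL-60 cells, a human promyelocytic leukaemia line, through the open chromatin around its 4 genes, RUNX1, RUNX2, RUNX3 and CBFB. They were taken by name from the 20163 protein-coding genes that could be compared. Every peak that overlapped a gene body of GENCODE release 44 on GRCh37 (hg19), or the 50 kb on either side of it, was assigned to that gene, and for RUNX2 the window was to reach at least 300 kb downstream of its first start, which the gene body with its flank already did. These windows held 74 of the 78063 regions that had a peak in at least 1 library. A region here is a set of peaks from the 4 lists that overlapped each other by at least 1 bp.

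RUNX1, RUNX2 and RUNX3 are transcription factors that bind DNA through a shared Runt domain, and CBFB encodes the partner protein that binds no DNA itself but stabilises the Runt domain on its site. RUNX1 is needed for the formation of blood stem cells and acts in myeloid differentiation, RUNX2 is best known as the master regulator of bone formation, and RUNX3 acts in T cells and sensory neurons. Each RUNX gene has a distal promoter, P1, and a proximal promoter, P2, which give proteins with different first residues.

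Cells were cultured for 4 days with 1 μM all-trans retinoic acid (ATRA), which drives HL-60 cells towards granulocytes, or with the same volume of its solvent, ethanol, and each agent was added again with fresh medium on day 2. ATAC-seq, which reads open chromatin from the places that Tn5 transposase can cut, was done on 2 libraries per group. All libraries came from this 1 cell line, and the study describes the replicates as independent biological ones. The lists hold no reads, so the depth of each library was unknown.

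The lists held 43494 peaks in ATRA replicate 1, 63541 in ATRA replicate 2, 42081 in control replicate 1 and 45903 in control replicate 2, and the median peak width was largest in ATRA replicate 2, at 416 bp against 291 to 328 bp. Promoter peaks were present at 4 to 6 of 8 myeloid genes in each library, with SPI1, CEBPE, CD33 and ITGAM in all 4, while ELANE had none in any. Because the lists differ in length, each peak is described by its score percentile, its rank by score among all peaks of the same list, where 100 is the highest. With 2 libraries against 2, the exact two-sided permutation test cannot give a p below 0.333, so no difference between groups given here could pass a threshold of 0.05.

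ATRA-specific regions outnumbered control-specific regions 18 to 6 at the 4 loci, and all 6 control-specific regions lay at RUNX2. Following the study's definition, a peak was convincing when both replicates of a group had it, and a convincing region was ATRA-specific, control-specific or overlapping according to whether the other group had an overlapping convincing peak. Of the 40 convincing regions, 18 (45.0%) were ATRA-specific, whereas 31.2% of the 45058 convincing regions of the genome were. Control-specific regions made up 15.0% of the convincing regions at the 4 loci and 16.5% over the genome, and the other 16 regions were overlapping. Of the 18 ATRA-specific regions, 13 had a peak in 1 of the control libraries, 8 in control replicate 1 and 5 in control replicate 2. Regions with peaks in both ATRA libraries and in neither control library numbered 5 of 74 (6.76%), compared with 8.94% over the genome. The opposite pattern, both control libraries and neither ATRA library, also occurred at 5 of 74 (6.76%), compared with 3.37%.

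The class counts depended on single libraries. Without a replicate, the other library stood for its group. Without ATRA replicate 1 there were 39 ATRA-specific regions, and without control replicate 2 there were 10. The control-specific count was 12 without control replicate 1 and 14 without control replicate 2. With the lists cut to the same number of peaks, 14 regions were ATRA-specific and 7 were control-specific. Of those 7, 5 lay at RUNX2, 1 at RUNX1 and 1 at RUNX3. Without control replicate 1, control-specific regions also lay at RUNX1 (3), RUNX3 (1) and CBFB (1). A peak was present in 1 library alone at 29 of the 74 regions, of which 16 were found in ATRA replicate 2 only.

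**Figure D1:**
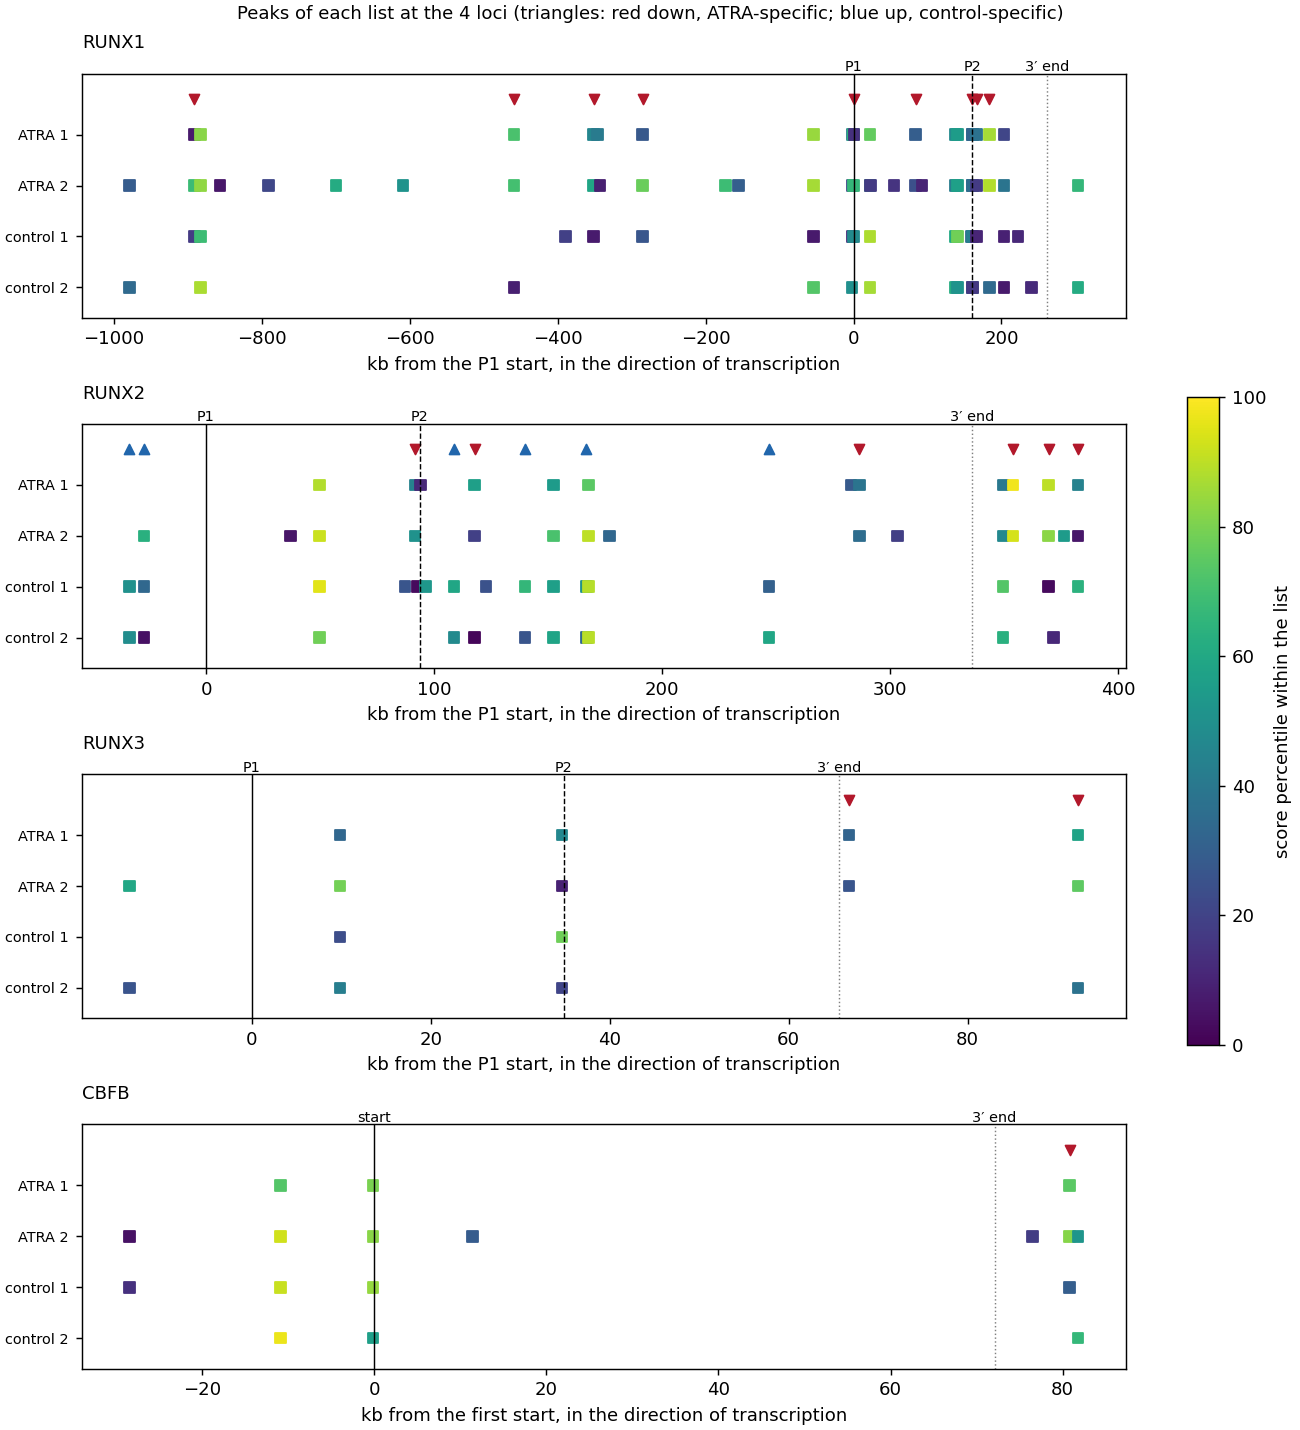
Peaks of the 4 lists around RUNX1, RUNX2, RUNX3 and CBFB. The horizontal axis gives the distance in kb from the P1 start (for CBFB, the first start) in the direction of transcription, each square is a peak of the library named at the left, its colour is the score percentile, and triangles mark specific regions. The 6 blue control-specific triangles all lie at RUNX2, and the 2 brightest squares just past the RUNX2 3′ end in the ATRA rows (97.8 and 93.7) have no counterpart in the control rows.

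In windows taken from the gene records, RUNX1 carried more peaks in the ATRA libraries and RUNX2 more in the control libraries when the length of each list was taken into account. In the RUNX1 window (chr21:36110098-37426965) there were 19 peaks in ATRA replicate 1, 29 in ATRA replicate 2, 16 in control replicate 1 and 14 in control replicate 2. Per 10000 listed peaks these were 4.37, 4.56, 3.80 and 3.05. The groups did not overlap, at 4.47 ± 0.138 (SD, n = 2) in ATRA against 3.43 ± 0.532 in the controls, a difference of 1.04 (exact permutation test, two-sided p = 0.333, 0.667 after Benjamini-Hochberg adjustment over the 4 genes). The window runs so far because 1 transcript starts 955 kb upstream of the others that share its first residues. Bounded 50 kb upstream of those others, a window chosen after the values were seen, the difference was 0.282. The groups then overlapped, with control replicate 1 above ATRA replicate 2.

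In the RUNX2 window (chr6:45245894-45682086) the numbers were 12, 15, 16 and 13, or 2.76, 2.36, 3.80 and 2.83 per 10000 listed peaks in the same order. Both ATRA values lay below both control values, at 2.56 ± 0.282 (SD, n = 2) against 3.32 ± 0.686, a difference of -0.757 (exact permutation test, two-sided p = 0.333, adjusted 0.667). Control replicate 2 was only slightly above ATRA replicate 1. The share of all protein-coding genes whose groups did not overlap was not computed, here or for RUNX1. Without control replicate 1, which had the most RUNX2 peaks, the difference was -0.272.

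RUNX3 and CBFB had fewer peaks in their shorter windows, and their groups overlapped. RUNX3 (window chr1:25176002-25341612) had 4, 5, 2 and 4 peaks, a difference per 10000 listed peaks of 0.180 (exact permutation test, two-sided p = 0.667, adjusted 0.889). CBFB (window chr16:67012887-67184961) had 3, 7, 4 and 4, with a difference of -0.0153 (exact permutation test, two-sided p = 1).

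The promoters of the 3 RUNX genes differed in which start was listed as open. P1 and P2 were told apart by the first residues of the annotated proteins. RUNX1 had peaks at both promoters, RUNX3 had a peak at P2 alone, RUNX2 had neither promoter open in more than 1 library, and CBFB had its only coding promoter open in all 4. A window from 1 kb upstream to 100 bp downstream of the starts counted as the promoter. Of the 10 start clusters of coding transcripts of the 4 genes, 3 had a peak in all 4 libraries, and over the genome 24.5% of 39200 coding promoters did. Where the centre of a peak had to lie inside the window, 2 of the 10 did, compared with 20.6% of coding promoters. The RUNX3 P2 and CBFB promoters kept their peaks, and the inner RUNX1 P2 start did not. With the lists cut to the same number of peaks, the RUNX3 P2 peak of ATRA replicate 2, at percentile 9.25, was lost.

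All 3 P1 promoters share a run of sequence that marks them out from the P2 promoters. It holds 2 copies of AACCACA, the consensus to which RUNX proteins bind, in the same direction and 1 base apart. Each of the RUNX windows held this paired match once, at P1, and the CBFB window held none. In 200 bp about the centre, 14 of the 78063 regions (0.0179%) held it on either strand, and 9 of 78569 coding start windows of 300 bp (0.0115%) did. The 14 include the RUNX1 P1 region, and the 9 include P1 starts of all 3 genes. Neither share is therefore a separate background, and matches at other genes were not counted apart. The pair was searched for after the individual matches had been seen. The 29 bases about it are shown for each gene because the promoter peaks can be read against them, with the letters AACCACA in capitals, 5′ to 3′ in the direction of the gene, on GRCh37. The 3 runs share 18 bases without a break.
RUNX1 P1 (chr21:36421557-36421585, minus strand): cataaacAACCACAgAACCACAagttggg
RUNX2 P1 (chr6:45296075-45296103, plus strand): cacaaacAACCACAgAACCACAagtgcgg
RUNX3 P1 (chr1:25291612-25291640, minus strand): gtccctcAACCACAgAACCACAaggccag

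A peak covered these bases at RUNX1 in 3 libraries, and at RUNX2 and RUNX3 in none. At RUNX1 the centre of the pair lies 70 bp downstream of the first of 6 P1 starts and 4 bp upstream of the last, which falls inside the pair. Part of the transcripts therefore carry the pair in the 5′ untranslated region. At RUNX2 the centre lies 195 bp downstream of the first start of 7 and upstream of the last, and at RUNX3 it lies 14 to 125 bp upstream of all 3 starts. A match of letters is a description and does not show that a protein was bound.

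The P1 promoter of RUNX1, from which the longer RUNX1 protein is made, was among the ATRA-specific regions (chr21:36421353-36421861). Its peak stood at percentile 65.0 in ATRA replicate 1, 66.6 in ATRA replicate 2 and 47.5 in control replicate 1, and control replicate 2 had no peak there. The corresponding widths were 399, 487 and 385 bp. Both ATRA values were above the control value, while the control libraries differed in whether the peak was listed at all. Upstream of its first start, P1 held an additional AACCACA and the AP-1 letters (TGACTCA, here on the other strand), both in capitals. The AP-1 letters lie within the region, whereas this AACCACA lies beyond its upstream end and was covered by no peak. The 250 bases before the first start are shown because the peak reaches into them.
RUNX1 P1 upstream (chr21:36421642-36421891, minus strand): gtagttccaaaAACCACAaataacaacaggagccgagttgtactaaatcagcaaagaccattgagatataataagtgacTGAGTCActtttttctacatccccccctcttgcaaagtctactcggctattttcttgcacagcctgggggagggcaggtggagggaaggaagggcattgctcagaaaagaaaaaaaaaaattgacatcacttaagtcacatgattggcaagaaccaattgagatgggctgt

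At the P2 promoter of RUNX1, which makes the shorter isoform, the peak stood at percentile 44.9 and 37.9 in the ATRA libraries and 40.4 in control replicate 2, with none in control replicate 1. This region (chr21:36260795-36261277) was therefore also ATRA-specific by the study's definition, although the control library that had the peak lay between the ATRA libraries. A separate region 38 bp further on, with its centre 476 bp downstream of the P2 start, had a peak in all 4 libraries, at 31.6, 34.8, 42.3 and 16.1. It also reached into the promoter window of an inner P2 start, from which its nearest base lay 786 bp upstream, and its centre was outside that window. The control values enclosed the ATRA values there, with a mean difference of 4.00 (exact permutation test, two-sided p = 1). A coding start 1.1 kb upstream of P2 that has its own first exon had a peak in control replicate 1 alone, at 34.3. The start 955 kb upstream that has the P1 first residues had none in any library.

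RUNX2 had no peak at P1 in any library, and its P2 had a weak peak in ATRA replicate 1 only, at percentile 11.3. RUNX3 had no peak at P1. Its P2 peak stood at 46.5 in ATRA replicate 1, 9.25 in ATRA replicate 2, 78.1 in control replicate 1 and 20.6 in control replicate 2, so replicates of 1 group differed more than the groups did (difference -21.5, exact permutation test, two-sided p = 0.667). The CBFB promoter peak was high in all 4 libraries, at 79.8, 82.1, 84.1 and 56.2, and the groups overlapped (difference 10.8, exact permutation test, two-sided p = 1). A promoter with no listed peak was not called at the depth of these libraries, which does not show that it was closed.

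**Figure D2:**
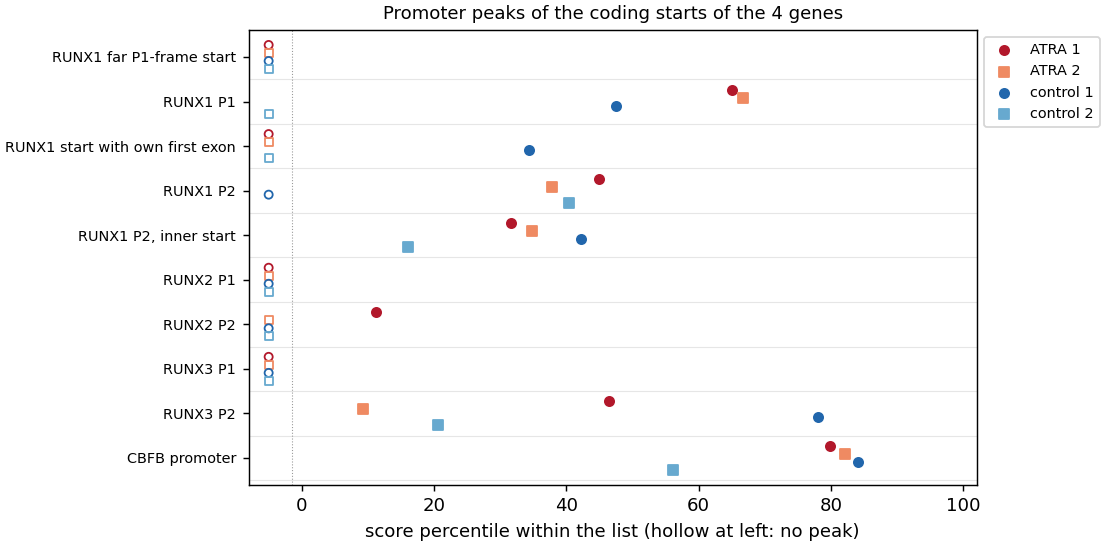
Score percentile of the promoter peak in each library at the 10 coding start clusters of the 4 genes. Filled symbols give the percentile within the list of that library (red shades, ATRA; blue shades, control), and hollow symbols at the left mark libraries with no peak. The CBFB promoter lies between 56.2 and 84.1 in all 4 libraries, while the P1 rows of RUNX2 and RUNX3 hold hollow symbols only.

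RUNX1 had 9 ATRA-specific and 8 overlapping regions and no control-specific region. Of the 9, 4 lay upstream of P1, 3 between the P1 start and the P2 start and 2 between the P2 start and the 3′ end. Among the 125 protein-coding genes with a window of like length (within 1.5 times), the median number of ATRA-specific regions was 2. Of these genes, 4 (3.20%) had at least as many as RUNX1. Of the 17 convincing regions, none was control-specific, but 3 were when either control library was left out, and 1 was when the lists were cut to the same number of peaks. The ATRA-specific count of 9 was 21 without ATRA replicate 1, 4 without control replicate 2 and 4 with only peaks above the median score of their list. With the window bounded at the main P1 cluster, 5 ATRA-specific regions were left.

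The ATRA-specific region of RUNX1 with the highest scores lay in the intron 22.8 kb downstream of the P2 start (chr21:36237735-36238596). Its peak stood at 86.6 in ATRA replicate 1, 88.6 in ATRA replicate 2 and 34.2 in control replicate 2, and control replicate 1 had none. The ATRA libraries were close to each other and well above the control library. The next highest lay 459 kb upstream of P1, at 71.4 and 70.1 in ATRA and 8.71 in control replicate 2. Regions 351 kb, 285 kb and 891 kb upstream of P1 were less even, with 46.0 and 58.8, 27.6 and 77.0, and 6.73 and 68.1 in the ATRA libraries. Their control replicate 1 values were 7.40, 26.7 and 17.5, the last of which was above ATRA replicate 1. The only RUNX1 region with peaks in both ATRA libraries and neither control library lay in the intron 83.9 kb downstream of P1, at the low percentiles of 29.6 and 24.4. A region 5.82 kb downstream of P2 completed the class, at 37.7 and 17.2 against 10.5 in control replicate 1.

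Among the 8 RUNX1 regions with a peak in all 4 libraries, 2 (25.0%) had both ATRA percentiles above both control percentiles and 2 (25.0%) had the reverse. Over the genome, 29.2% and 12.8% of 23653 such regions did. An intronic region 53.8 kb upstream of the P1 start (chr21:36475139-36475745) stood at 84.6 and 86.5 in ATRA and at 6.70 and 73.4 in the controls. The ATRA libraries were close to each other, and most of the mean difference of 45.5 came from control replicate 1 (exact permutation test, two-sided p = 0.333). A region 42.8 kb downstream of P2 had low scores that were higher in ATRA, at 20.8 and 38.6 against 9.21 and 6.68, a difference of 21.8. In the opposite direction, a region in the intron between the promoters, 22.3 kb downstream of P1 (chr21:36398926-36399805), stood at 76.1 and 64.9 in ATRA and at 87.8 and 86.4 in the controls. This difference of -16.6 (exact permutation test, two-sided p = 0.333) was larger than the spread within either group. An enhancer active in blood stem cells is known in that intron of Runx1, and whether this region is its human counterpart was not tested. A region 22.8 kb upstream of P2 was lower in ATRA by a similar amount, at 47.5 and 41.8 against 60.3 and 61.8.

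The other 4 regions of this kind had overlapping groups. They included an intronic region 883 kb upstream of P1, at 82.2, 83.3, 68.6 and 87.1, a region 2.17 kb upstream of P1, at 44.2, 21.5, 11.8 and 49.9, and a region 19.96 kb upstream of P2, at 54.8, 56.5, 78.2 and 51.5, beside the region next to P2 already given. The region nearest to P1 varied more within each group than between them.

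The middle 200 bases of the RUNX1 regions on either side of P1 are shown because their groups did not overlap and moved in opposite directions. Capitals mark the letters of PU.1 (GAGGAAGT, or ACTTCCTC on the other strand) and of the GATA factors (AGATAA, or the same with T as its first letter) in the upstream region, and the downstream region held none of the motifs searched.
RUNX1, 53.8 kb upstream of P1 (chr21:36475342-36475541, plus strand): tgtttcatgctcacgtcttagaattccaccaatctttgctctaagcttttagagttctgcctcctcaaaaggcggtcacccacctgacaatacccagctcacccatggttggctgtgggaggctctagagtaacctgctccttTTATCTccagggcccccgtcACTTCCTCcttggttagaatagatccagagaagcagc
RUNX1, 22.3 kb downstream of P1 (chr21:36399266-36399465, plus strand): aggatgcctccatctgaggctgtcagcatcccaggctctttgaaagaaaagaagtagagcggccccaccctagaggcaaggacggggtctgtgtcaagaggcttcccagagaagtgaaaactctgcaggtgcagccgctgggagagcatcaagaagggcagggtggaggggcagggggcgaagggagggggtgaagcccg

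RUNX2 held 6 ATRA-specific, 6 control-specific and 4 overlapping regions. Among 1342 genes with a window of like length the median number of control-specific regions was 1. Of these genes, 12 (0.894%) had at least as many as RUNX2. For ATRA-specific regions the median was 2, and 52 genes (3.87%) had at least as many as RUNX2. The RUNX2 count was 10 without ATRA replicate 1, 4 without control replicate 2 and 2 with only peaks above the median score. The 2 classes were arranged along the gene in a way that differed only in part. The control-specific regions lay from 33.7 kb upstream to 247 kb downstream of the P1 start, 2 of them in introns of the neighbouring gene SUPT3H and 4 in RUNX2 introns after P2, while 3 of the ATRA-specific regions lay beyond the RUNX2 3′ end. The other ATRA-specific regions lay in RUNX2 introns 91.6, 117.8 and 286.6 kb downstream of the P1 start, the first 2 within the control-specific span. This arrangement is a description of 12 regions and was not tested.

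The ATRA-specific region with the highest scores of the 4 loci lay in intergenic sequence 17.3 kb past the RUNX2 3′ end, 354 kb from the P1 start (chr6:45649407-45650408). Its peak stood at percentile 97.8 in ATRA replicate 1 and 93.7 in ATRA replicate 2, with widths of 818 and 1002 bp, and neither control library had a peak. A second region 15.6 kb further on (chr6:45665072-45665899) stood at 89.9 and 82.7 in ATRA, at 2.68 in control replicate 1 and had no peak in control replicate 2. Another region, 46.0 kb past the 3′ end, had 44.5 and 5.90 in ATRA and 63.8 in control replicate 1, and it was ATRA-specific only because control replicate 2 had no peak. In the same stretch, 13.1 kb past the 3′ end, a region open in all 4 libraries (chr6:45645151-45645795) was lower in ATRA, at 40.0 and 46.6 against 73.4 and 63.5, a difference of -25.2 (exact permutation test, two-sided p = 0.333). The region lower in ATRA and the region found only in ATRA were thus 4.43 kb apart at their centres.

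Sequences of these RUNX2 regions are shown together with that of the highest-scoring control-specific region, which lies 15.0 kb downstream of P2, so that both directions can be read side by side. Each is the middle 200 bases of the region on GRCh37, with matches to RUNX (AACCACA), PU.1, CEBP (TTGCNNAA), GATA and AP-1 in capitals on either strand. The ATRA-specific region with the highest scores held none of these, the second held CEBP and AP-1 letters, and so did the control-specific region. The region lower in ATRA held a RUNX and a GATA match.
RUNX2, 354 kb from P1, ATRA-specific (chr6:45649808-45650007, plus strand): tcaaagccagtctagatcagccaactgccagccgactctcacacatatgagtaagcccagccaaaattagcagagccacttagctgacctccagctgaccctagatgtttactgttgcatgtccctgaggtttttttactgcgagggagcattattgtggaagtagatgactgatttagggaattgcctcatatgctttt
RUNX2, 369.6 kb from P1, ATRA-specific (chr6:45665386-45665585, plus strand): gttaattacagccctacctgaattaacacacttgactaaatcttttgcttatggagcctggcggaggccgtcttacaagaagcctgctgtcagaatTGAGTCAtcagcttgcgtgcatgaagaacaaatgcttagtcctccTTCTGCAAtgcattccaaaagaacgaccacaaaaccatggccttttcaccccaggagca
RUNX2, 349.6 kb from P1, lower in ATRA (chr6:45645373-45645572, plus strand): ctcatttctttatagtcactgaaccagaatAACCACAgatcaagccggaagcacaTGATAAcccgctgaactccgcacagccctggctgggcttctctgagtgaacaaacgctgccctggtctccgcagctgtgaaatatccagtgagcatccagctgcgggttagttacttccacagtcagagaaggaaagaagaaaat
RUNX2, 108.8 kb from P1, control-specific (chr6:45404626-45404825, plus strand): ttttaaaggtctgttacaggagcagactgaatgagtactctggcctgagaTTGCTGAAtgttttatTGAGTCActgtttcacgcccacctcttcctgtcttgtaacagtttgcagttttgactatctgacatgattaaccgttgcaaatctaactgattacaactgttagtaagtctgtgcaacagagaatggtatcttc

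The control-specific regions of RUNX2 had middling scores. The region shown above stood at 59.2 in control replicate 1 and 47.5 in control replicate 2. The others with no peak in either ATRA library were 1 in a SUPT3H intron 33.7 kb upstream of P1, at 50.3 and 48.7, and 3 in RUNX2 introns 46.0, 72.9 and 153 kb downstream of P2, at 66.2 and 26.2, 50.0 and 33.5, and 30.7 and 59.0. The sixth, 27.3 kb upstream of P1, had a peak at 63.6 in ATRA replicate 2, above the control values of 33.3 and 4.41. None of the 6 stood above percentile 66.2 in any control library, and the larger ATRA-specific class of the 4 loci reached 97.8. Typical scores were closer. The control-specific medians were 50.2 and 40.5 in control replicates 1 and 2, and the ATRA-specific medians were 45.5 and 62.7 in ATRA replicates 1 and 2. Of the control-specific regions, 1 was left at RUNX2 when only peaks above the median score of their list were used, and without control replicate 2 there were 10.

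Around the RUNX2 P2 promoter, several peaks were listed in 1 group or library. A region 2.30 kb upstream of P2 was found in both ATRA libraries, at 43.8 and 50.4, and in neither control library. Peaks 1.25 kb upstream (2.36) and 2.32 kb downstream (53.0) were found in control replicate 1 alone, so the surroundings of P2 had listed peaks in both groups but not at the same places. Further into the gene, the ATRA-specific regions 23.96 kb and 193 kb downstream of P2 stood at 56.1 and 18.8, with 1.20 in control replicate 2, and at 38.4 and 35.4 with no control peak.

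Besides the region past the 3′ end, 3 regions at RUNX2 were open in all libraries, 2 of them with high scores. The promoter of SUPT3H, which lies between P1 and P2 in the opposite direction, stood at 88.5, 92.2, 95.4 and 78.2. An intronic region 73.9 kb downstream of P2 stood at 74.4, 90.2, 88.9 and 89.1 and lay 238 bp from a control-specific region. It was also the only 1 of the 16 regions of the 4 loci open in all libraries that was wider in both control libraries, at 761 and 889 bp against 567 and 655 bp. An intronic region 58.5 kb downstream of P2, which held an AACCACA, stood at 54.7, 71.5, 56.1 and 58.2.

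**Figure D3:**
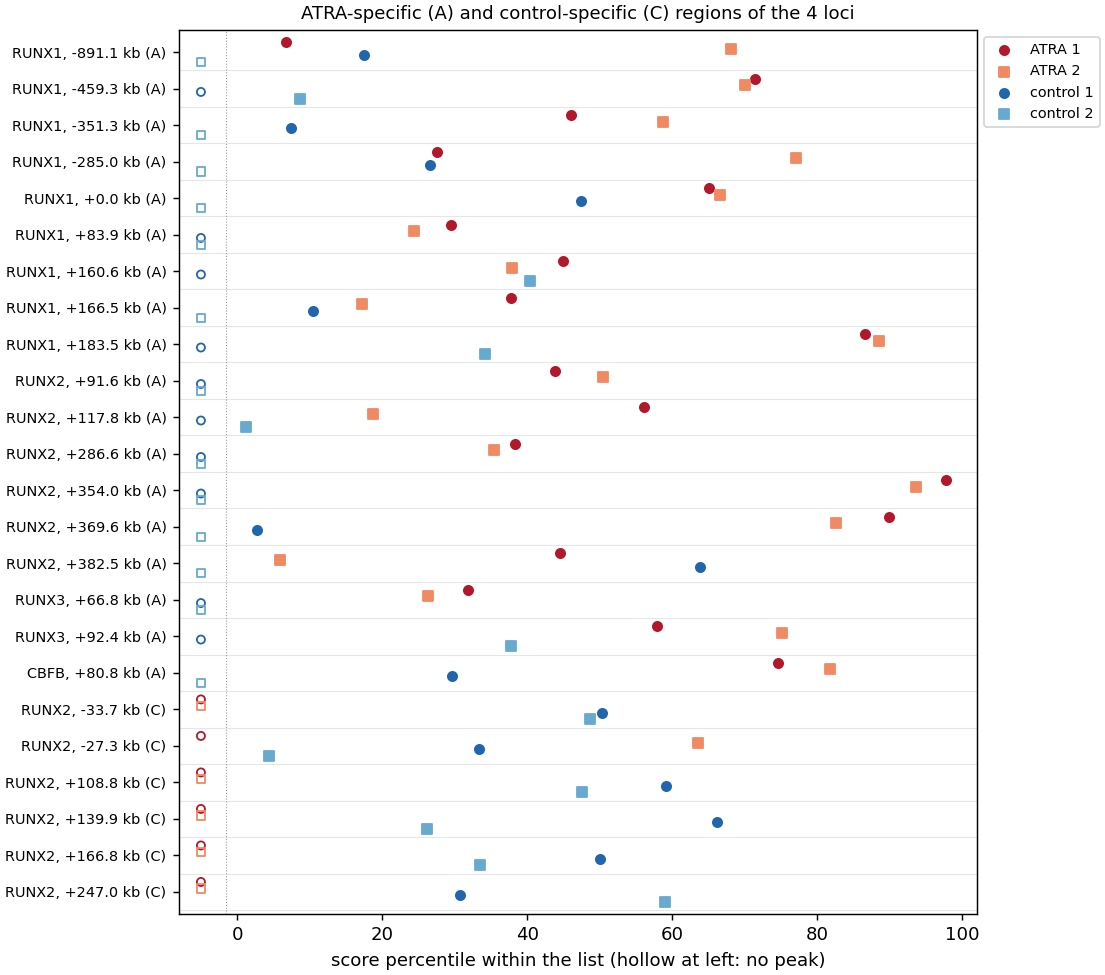
Score percentiles of the 18 ATRA-specific (A) and 6 control-specific (C) regions, each named by its gene and its distance in kb from the P1 start (for CBFB, the first start). Symbols are libraries (red shades, ATRA; blue shades, control) and hollow symbols at the left mark no peak. The row RUNX2 +354.0 kb holds the highest values of both ATRA libraries, 97.8 and 93.7, and in the row RUNX2 +382.5 kb the control replicate 1 value lies above both ATRA values.

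RUNX3 held 2 ATRA-specific regions, both downstream of the gene, and no control-specific region. Of 12488 genes with a window of like length, 34.8% had at least as many ATRA-specific regions, with a median of 1. The median of control-specific regions among them was 0. With lists of equal length, and without control replicate 1, RUNX3 had 1 ATRA-specific and 1 control-specific region. The ATRA-specific count was also 1 with 20 kb flanks and with only peaks above the median score. With 100 kb flanks there was 1 control-specific region. The nearer lay 31.9 kb downstream of P2 (chr1:25224631-25225032), just past the 3′ end, with peaks at 31.8 and 26.4 in the ATRA libraries only. It held PU.1 and AP-1 letters. The farther (chr1:25199002-25199502) stood at 57.9 and 75.2 in ATRA and at 37.8 in control replicate 2, with none in control replicate 1, and held an AACCACA. Besides P2, a region 9.88 kb downstream of P1 was open in all 4 libraries, at 33.2, 78.5, 23.1 and 42.4, where ATRA replicate 2 stood apart from the other libraries (difference 23.1, exact permutation test, two-sided p = 0.667).

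CBFB had 1 ATRA-specific region, and it lay at the promoter of the neighbouring gene PHAF1 (chr16:67143401-67143958). Its peak stood at 74.6 and 81.7 in ATRA and 29.6 in control replicate 1, with none in control replicate 2. Of 11078 genes with a window of like length, 65.9% had at least 1 such region, and the median was 1. An intergenic region 10.9 kb upstream of CBFB was open in all libraries at 73.2, 92.7, 91.8 and 96.9. The lowest value was that of ATRA replicate 1, and the groups overlapped through ATRA replicate 2. Past the promoter peak, which reached into the gene body, the only peak in the gene body was 1 of ATRA replicate 2, at 28.6.

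Over the 16 regions of the 4 loci with a peak in all 4 libraries, the median difference in score was close to that of the genome. Both ATRA percentiles lay above both control percentiles at 2 (12.5%), compared with 29.2% of 23653 such regions over the genome, and both control percentiles lay above at 3 (18.8%), compared with 12.8%. The median difference, ATRA minus control, was 2.79 percentile points over the 16 regions and 2.83 over the genome. Peaks were wider in both ATRA libraries at 6 (37.5%), compared with 37.1%, and narrower in both at 1 (6.25%), compared with 3.97%. Several of these shares rest on a few regions: with the lists cut to the same length, the counts by percentile were 1 and 5.

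**Figure D4:**
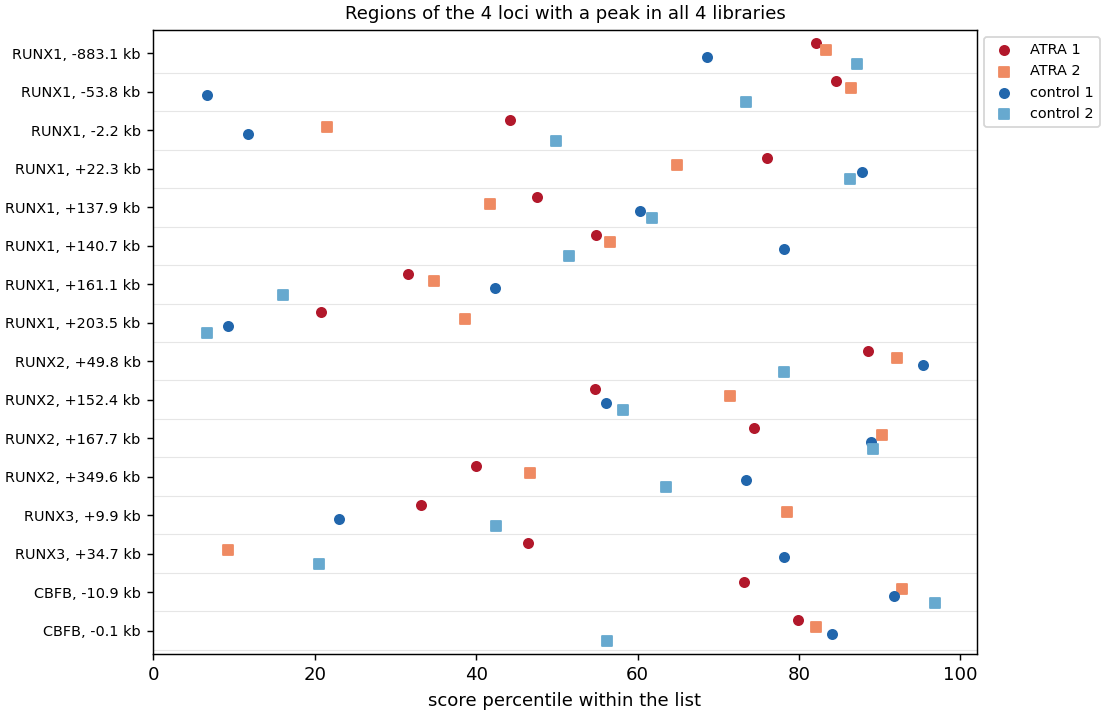
Score percentiles of the 16 regions with a peak in all 4 libraries, named as gene and distance in kb from the P1 start (for CBFB, the first start), with 1 symbol per library (red shades, ATRA; blue shades, control). The groups do not overlap in the rows RUNX1 -53.8 kb and +203.5 kb, where ATRA is higher, and RUNX1 +22.3 kb, RUNX1 +137.9 kb and RUNX2 +349.6 kb, where the controls are higher.

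The RUNX letters were found at 8 of the 74 regions (10.8%), close to the 8.55% of all regions. They were at 3 of 5 RUNX3 regions, 3 of 35 RUNX1 regions, 2 of 27 RUNX2 regions and none of 7 CBFB regions. By class, 3 of 18 ATRA-specific regions, 3 of 16 overlapping regions and none of 6 control-specific regions held them. The letters of the other blood factors were at 9.46% of the 74 regions for PU.1 (8.94% of all regions), 16.2% for CEBP (12.3%), 16.2% for GATA (18.8%) and 10.8% for AP-1 (5.72%). GC content had a median of 47.0% in the 74 windows of 200 bp and 47.5% over all regions.

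Genes listed as RUNX partners and cofactors had ATRA-specific regions more often than control-specific regions, as did all protein-coding genes. Window length was not matched here or for the targets below. Of 15 partner and cofactor genes, 14 (93.3%) had an ATRA-specific region within 50 kb of the gene body, compared with 64.5% of 20163 protein-coding genes, and 5 (33.3%) had a control-specific region, compared with 39.0%. HIPK2, a kinase that phosphorylates RUNX1, had 6 ATRA-specific regions and 1 control-specific region. ETV6, a repressor that is fused to RUNX1 in childhood leukaemia, had 5 and 1. The corepressor genes CBFA2T2 and TLE3 and the acetyltransferase gene KAT6A had 3 ATRA-specific regions each and no control-specific region. CBFA2T3, a further corepressor, had 3 of each class, and TLE4 had 1 ATRA-specific and 2 control-specific regions, while ELF4 had 1 of each.

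Of 13 genes listed as RUNX targets in myeloid and other blood cells, 10 (76.9%) had an ATRA-specific region and 10 (76.9%) had a control-specific region, compared with 64.5% and 39.0% of all protein-coding genes. ITGAL, the alpha chain of the leukocyte integrin LFA-1, had 6 ATRA-specific and 2 control-specific regions, and SPI1, which encodes PU.1, had 4 and 2. ITGAX, the alpha chain of another leukocyte integrin, had 2 and none. In the other direction, CSF1R, the receptor of macrophage colony-stimulating factor, had 1 ATRA-specific and 6 control-specific regions, as many control-specific regions as RUNX2. The integrin gene ITGA4 had 1 and 4, IL3 had 1 and 3, and the repressor gene GFI1 had none and 3. Genes of the list that lie near each other, such as CSF2 and IL3, share regions.

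The genes whose peak numbers were most like those of each member were found among genes with a window of like length, by the sum of absolute differences over the 4 libraries. For RUNX2 these were ZBTB7C, with 12, 15, 14 and 13 peaks and a sum of 2, and FNDC3B and MAP3K5, each with a sum of 3. None of them had as many control-specific regions as RUNX2, with 3, 2 and 4. For RUNX1 the nearest gene with a symbol was PLCB1, with 15, 27, 12 and 13 peaks and a sum of 11, and 2 genes listed only by an Ensembl identifier were nearer. These 3 had 7, 9 and 6 ATRA-specific regions, PLCB1 first, against 9 at RUNX1. RUNX3 and CBFB have so few peaks that 11 and 10 genes had exactly the same numbers.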

How the data were processed

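The deposited files are 1 peak list per library, with a score per peak that the authors' peak caller gave. Per the labels and the study's methods, the authors removed adapters with cutadapt, aligned reads to hg19 with Bowtie2 (Bowtie in the methods) and called peaks per library with MACS2 at default settings. The scale of the score was not stated. It ran from 50.0 to a ceiling of 3100. No Tn5 shift, duplicate or blacklist step was given in the sources used here, so peak edges may be offset and some peaks may lie in repeats. A longer list has more and wider peaks, which can raise presence counts.

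Regions, classes, percentiles, exact permutation tests and motif counts were computed in Python 3.11.15 with numpy 2.4.6, scipy 1.17.1 and pysam 0.24.0, with genes and sequences from GENCODE 44 and GRCh37, and the region and class steps were tested on simulated data. Groups came from the sample labels. All 4 members with each promoter and each specific region were named, and up to 4 genes per class from 2 pathway lists (with ties). The members and lists were chosen with earlier results of these data known. Alternatives changed the overlap, the flank, the gene body, the list length, the score minimum and the libraries used.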

Additional observations from a re-analysis of the deposited data

How the results depend on the processing

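Of 270 recomputed values, counts and differences for the 4 loci, 11 changed sign and 58 counts moved by over 1.5 times. The 270 include values that could not change, those from the most distal P1 start and from the replicate block. With only peaks above the median score of their list, 8 regions were ATRA-specific, 2 control-specific and 8 overlapping, 2 had peaks in both control libraries alone, and percentiles were higher in ATRA at 0 and in the controls at 1 of those in all libraries. With lists of equal length, 3 regions had peaks in both ATRA libraries alone, percentiles were higher in ATRA at 1 and in the controls at 5, and the difference at the window of the inner RUNX1 P2 start became -9.97. With 100 kb flanks, 27 regions were overlapping, 8 had peaks in both ATRA libraries alone, 7 had higher ATRA percentiles, and the difference in peaks per 10000 became -0.259 at RUNX3 and 0.154 at CBFB. It was 0.0249 at CBFB with 20 kb flanks and 0.190 with only peaks above the median score. The window bounded at the main RUNX1 P1 cluster, added after the values were seen, left 1 region with higher ATRA percentiles. With the centre of the peak required inside the promoter window, the inner RUNX1 P2 start had no value, and the other promoter differences did not move. The most distal P1 start gave the same windows as the gene records. The cause of these shifts was not tested.

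Leaving out 1 library at a time gave 10 to 39 ATRA-specific and 5 to 14 control-specific regions, 9 to 21 with peaks in the ATRA libraries alone, 5 to 12 in the control libraries alone, 2 to 11 with higher ATRA percentiles and 4 to 9 with higher control percentiles. The difference in peaks per 10000 ran from -0.0181 to 0.378 at RUNX3 and from -0.221 to 0.191 at CBFB, and kept its sign at RUNX1 and RUNX2. Promoter differences ran from -9.10 to 17.1 at the inner RUNX1 P2 start, from -50.2 to 7.29 at RUNX3 P2 and from -3.14 to 24.8 at CBFB.

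The replicate numbers pair libraries by number only. Deviations of same-numbered libraries correlated at 0.211 over 23653 regions. With the replicate block the differences in peaks per 10000 were those given, 1.04 at RUNX1, -0.757 at RUNX2, 0.180 at RUNX3 and -0.0153 at CBFB, and the exact p was 0.5, 0.5, 1 and 1, where 0.5 is the smallest 2 pairs allow. No reads are listed, so depth, which limits which peaks were called, was unknown.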
